A study of Mus musculus with 9 samples.

Results

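The insulin-like growth factor (IGF) axis was described through 10 genes, chosen as the table rows with the symbols Igf2, Igf1, Igf2r, Igf1r, Igfbp1, Igfbp2, Igfbp3, Igfbp4, Igfbp7 and Grb10, out of 30519 genes in the table, each represented by 1 transcript. They were measured by polyA RNA-seq in livers of 4 miR-122 knockout mice (KO, 1 female and 3 males) and 5 floxed littermate mice that served as controls (WT, 3 females and 2 males), all aged 6 weeks. Hepatocytes make miR-122 as their dominant microRNA. The sources used here do not give the strain, the Cre driver or the litter of each animal, and the genotype rests on the labels because miR-122 itself was not analysed here. The livers were frozen and ground before extraction, so all liver cell types contributed RNA, and fewer cells of a type cannot be told apart from less RNA per cell. The 6 hepatocyte markers examined (Alb, Ttr, Apoa1, Tat, Cps1 and Cyp2e1) had summed values between 50941 and 67229 in KO libraries and between 44982 and 110726 in WT libraries, and of these Tat rose and Apoa1 fell in KO.

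Values are normalised abundances per transcript length, so levels can be set side by side between genes. Reads recovered from these values lay between 15.5 and 22.1 M (mega) in KO and between 12.3 and 19.7 M in WT livers, and the WT males were the shallowest with 12.7 and 12.3 M. The deposited totals were lower in KO (0.711 to 0.869 M) than in WT (0.873 to 1.17 M), so scaling every library to the same total raises each KO value relative to WT. WT 3 is labelled female although its column is named male, and its Y-linked Ddx3y stood at 0.0422 against 13.2 to 28.0 in male libraries, so the label was kept.

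IGF1 and IGF2 are secreted growth factors that signal through the IGF1 receptor. The adult liver is the main source of circulating IGF1, while Igf2 is transcribed strongly in fetal liver and falls to a low level after birth in mice. IGF2 is also bound by the IGF2 receptor, which takes it into the cell for degradation, and most IGF in blood is held by binding proteins that extend its life and limit its access to receptors.

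The listed Igf2 transcript (ENSMUST00000000033) has 4 exons and lies on the minus strand at chr7:142650766-142657496 (GRCm38). RefSeq (GRCm38.p6) places 4 start sites in Igf2, and the listed transcript begins exactly at 1 of them. The 300 bases around that start, chr7:142657447-142657746 (minus strand), are shown because the abundance listed for Igf2 is that of the transcript that begins here, and transcripts from the other starts were not analysed here. The capitals mark GC boxes, searched as GGGCGG on both strands.
Igf2 promoter: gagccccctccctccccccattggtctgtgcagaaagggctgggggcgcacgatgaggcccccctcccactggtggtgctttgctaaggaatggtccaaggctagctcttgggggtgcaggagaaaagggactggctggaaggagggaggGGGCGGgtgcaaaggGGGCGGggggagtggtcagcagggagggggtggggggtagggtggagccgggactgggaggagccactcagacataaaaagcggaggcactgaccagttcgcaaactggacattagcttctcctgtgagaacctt
This window held 2 GC boxes and 63.3% G or C, and no TATAAA was found on either strand. Of 32851 promoter windows of the same length, 35.7% held a GC box, 13.6% held TATAAA, and the median share of G or C was 52.7%. All 10 genes had a RefSeq promoter, and for 8 of them 1 RefSeq start lay within 50 bases of the start of the listed transcript.

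Matches to the seed of miR-122-5p, read as the core CACTCC on the transcript strand, were sought in the 3' UTR annotated for each listed transcript (GENCODE M21, GRCm38). Sites are called 6mer for the core alone, 7mer-A1 where an A follows it, 7mer-m8 where an A precedes it and 8mer with both. In Igf2 there were 3 matches, in Igf2r and Grb10 1 each, in Igfbp4 1 and in Igf1r 5, and none lay in Igf1, Igfbp1, Igfbp2, Igfbp3 or Igfbp7. The annotated 3' UTRs with a match were 1304 to 7267 bases long, and those without were 177 to 1435 bases long. A longer 3' UTR offers more places for a match, and the shares over all transcripts given below are not adjusted for length. They are shown for Igf2, Igf2r, Grb10 and Igfbp4, with the matched bases in capitals, and the 5 in Igf1r are not printed.
Igf2 6mer, chr7:142653697-142653725: tctctctgctcCACTCCctccccaggttt
Igf2 6mer, chr7:142651671-142651699: gtcatcttgccCACTCCtcagcaccccac
Igf2 7mer-A1, chr7:142651489-142651517: gccgtagcagcCACTCCAcggtgcctagg
Igf2r 6mer, chr17:12683532-12683560: gaggtgggcacCACTCCttcatgatcgtt
Grb10 6mer, chr11:11933052-11933080: tcacttttttgCACTCCttcttcgttgtc
Igfbp4 8mer, chr11:99054125-99054153: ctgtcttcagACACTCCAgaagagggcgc
The Igf2, Igf2r and Grb10 windows are on the minus strand and the Igfbp4 window is on the plus strand. Among 17830 transcripts with a 3' UTR of at least 50 bases, the best match was an 8mer in 2.82%, a 7mer-m8 in 4.89%, a 7mer-A1 in 5.42% and a 6mer in 11.1%, and 75.8% had no match. The only 8mer among the members was in Igfbp4, and a link between matches and abundance was not tested. A match is a stretch of letters and not a measured site.

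Of the 10 members, 9 reached the minimum mean of 1 over all 9 libraries that a test required, and Igf1r did not. In the KO livers 4 of the 9 rose (Igf2, Igf2r, Igfbp7 and Grb10) and Igfbp2 fell, at a limma adjusted p under 0.05 over 10950 transcripts, while Igf1, Igfbp1, Igfbp3 and Igfbp4 did not pass the test. Over all transcripts tested, 21.4% were called higher and 14.5% lower. Grb10 reached the minimum mean of 1 only through the KO livers (mean 4.39 in KO and 0.635 in WT). Its entry into the test therefore favoured a rise. The lowest KO library lay above the highest WT library for 5 members (Igf2, Igf2r, Igfbp1, Igfbp7 and Grb10), which held for 19.0% of all transcripts tested, and the highest KO library lay below the lowest WT library for Igfbp2, which held for 12.1%. The median log2 fold change was 0.82 over the 9 members tested and 0.03 over all transcripts tested, on the log2(value + 1) scale, which understates the change of low transcripts. The 9 include Grb10, and the members were chosen with earlier results of these data known. The difference between these medians is therefore a description and not a test. With every library scaled to equal totals the median of all transcripts moved from 0.03 to 0.36, 45.0% of transcripts were called higher and 2.72% lower, and 7 members were called higher and 0 lower, as Igf1, Igfbp1 and Igfbp3 were added and Igfbp2 was lost (limma, unadjusted p under 0.05 and lower: 1).

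**Figure D1:**
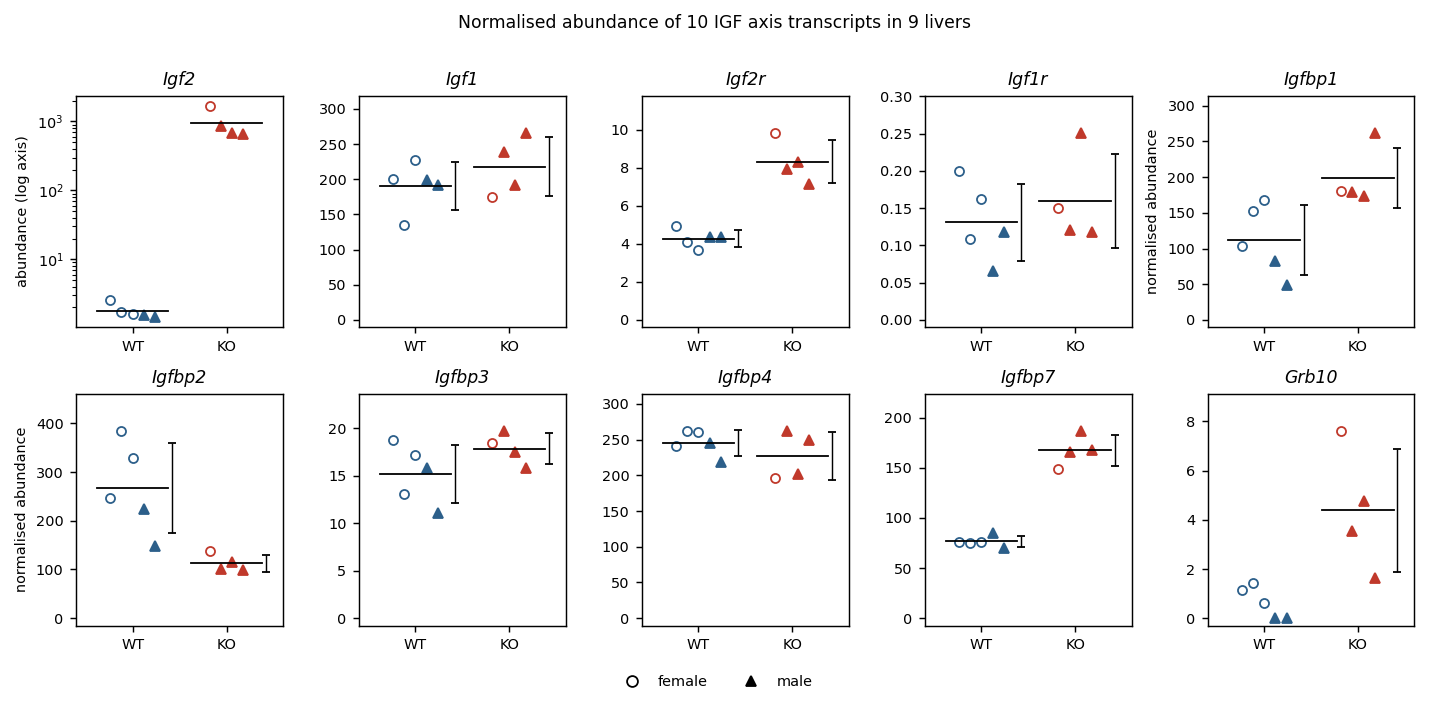
Normalised abundance (vertical axis, no unit; log axis for Igf2, linear from 0 for the others) of each member in 5 WT and 4 KO livers, open circles for females and filled triangles for males. Horizontal lines are group means and side bars are 1 SD, left out for Igf2 and, with 2 libraries at 0, the mean and SD left out for Grb10 in WT; the groups separate for Igf2, Igf2r, Igfbp1, Igfbp2, Igfbp7 and Grb10.

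Igf2 showed the highest log2 fold change of all 10950 transcripts tested. Its abundance was 1670, 847, 674 and 655 in KO 1 to KO 4, and 2.59, 1.72, 1.58, 1.57 and 1.46 in WT 1 to WT 5. Every KO liver was at least 253-fold above the highest WT liver, and the KO female was highest. The means were 961 ± 480 (SD, n = 4) and 1.78 ± 0.459 (SD, n = 5), a ratio of 539, and the log2 fold change was 8.33 ± 0.26 (SE; limma adjusted p = 1.22e-07). By level, Igf2 ranked 85 among the 30519 transcripts by its KO mean and 9272 by its WT mean. It made up 0.0753% to 0.232% of the summed abundance of a KO library. The WT values rested on 51 to 161 recovered reads per library, so Igf2 was low but detected in each WT liver.

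Igf1, the endocrine growth factor made by hepatocytes under growth hormone, did not pass the test. It stood at 175, 239, 192 and 266 in KO livers and at 201, 135, 227, 199 and 192 in WT livers. The ranges overlapped in part, with KO 2 and KO 4 above every WT liver and WT 2 below every KO liver. The log2 fold change was 0.19, with a 95% interval from -0.19 to 0.57 (limma adjusted p = 0.412), and at equal totals it was 0.59 (adjusted p = 0.00861). The listed Igf1 transcript is 651 bases long and is 1 of 8 coding transcripts annotated for the gene, so other Igf1 isoforms were not measured here.

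The make-up of the listed Igf1 and Igf2 transcripts differed between the genotypes. Igf2 supplied 90.5%, 78.0%, 77.8% and 71.1% of the summed Igf1 and Igf2 abundance in KO 1 to KO 4. In WT livers its share was 0.692% to 1.27%. The sum itself was 865 to 1844 in KO and 137 to 228 in WT livers. These shares combine values described above and carry no test of their own. Other Igf1 and Igf2 isoforms were not measured here, so they are not shares of all ligand mRNA.

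**Figure D2:**
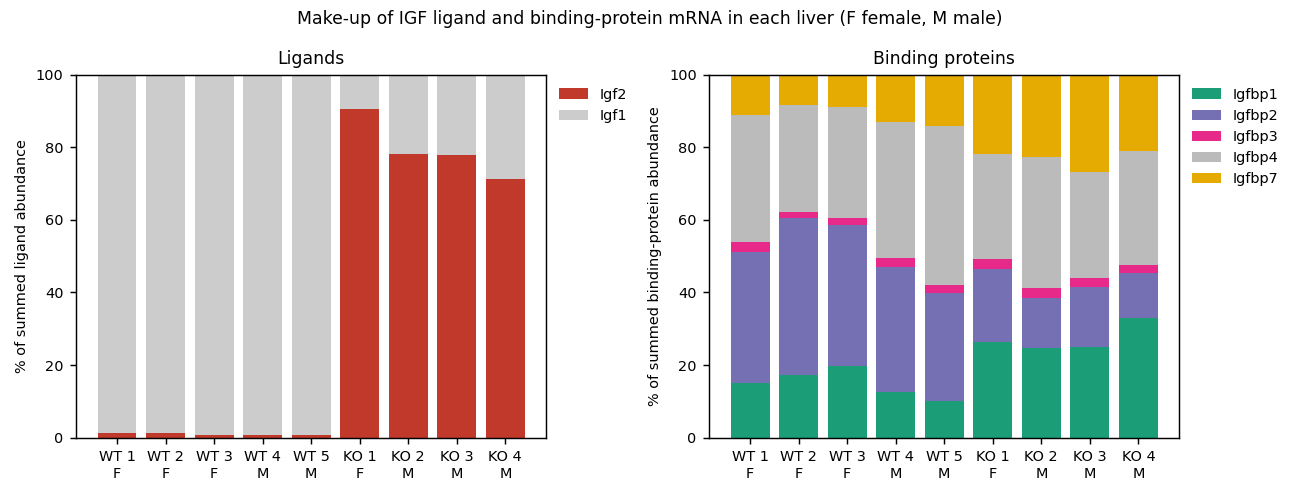
Left, share (%) of the listed Igf2 and Igf1 transcripts in their summed abundance per liver. Right, share (%) of each of 5 binding-protein transcripts in their sum. Both are for WT 1 to WT 5 and KO 1 to KO 4. Igf2 fills 71.1% to 90.5% of the ligand bar in KO and at most 1.27% in WT, and Igfbp2 fills less and Igfbp1 and Igfbp7 more of the binding-protein bar in each KO than in any WT liver.

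Igf2r encodes the IGF2 receptor, also known as the cation-independent mannose 6-phosphate receptor, which carries lysosomal enzymes and removes IGF2 from the cell surface. Its abundance was 9.82, 7.95, 8.31 and 7.14 in KO livers and 4.92, 4.08, 3.67, 4.35 and 4.36 in WT livers. All KO livers lay above all WT livers. The means were 8.31 ± 1.12 (SD, n = 4) and 4.28 ± 0.456 (SD, n = 5), a ratio of 1.94, with a log2 fold change of 0.82 ± 0.10 (SE; limma adjusted p = 0.000296). As with Igf2, the KO female had the highest value.

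Igf1r, the signalling receptor for both ligands, was close to the limit of detection. It stood at 0.150, 0.121, 0.251 and 0.117 in KO and at 0.200, 0.108, 0.163, 0.0652 and 0.118 in WT livers, and the groups overlapped. These values rested on 3 to 18 recovered reads per library. Fitted with no filter on low values over 21285 transcripts, its log2 fold change was 0.04, with a 95% interval from -0.07 to 0.14 (limma adjusted p = 0.631), on a scale where values this far below the pseudocount of 1 hardly move. The recovered reads imply an effective length of 4391 bases for Igf1r, against 11260 from the annotation used here, while for the other 9 members the 2 lengths had a ratio of 1.01 to 1.04. The Igf1r model behind the deposited values was therefore shorter, and the 5 seed matches, at 1427 to 6298 bases after the stop codon, may lie outside it.

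Grb10 encodes an adaptor that binds the insulin and IGF1 receptors and dampens their signal. It was 7.60, 3.55, 4.75 and 1.65 in KO livers and 1.13, 1.41 and 0.632 in WT females, and it was listed at 0 in both WT males. Recovered reads were 97, 120 and 49 in the WT females and 0 in both WT males, and the reason for the zeros was not tested. The listed Grb10 transcript is 1 of 6 coding transcripts annotated for the gene, so other Grb10 isoforms were not measured here. The lowest KO value, in KO 4, was just above the highest WT value. The log2 fold change was 1.69 ± 0.38 (SE; limma adjusted p = 0.00701). It was 1.28 with WT females as the only controls (adjusted p = 0.0298) and 2.04 among males alone (adjusted p = 0.0147). The fold change followed the pseudocount, from 0.71 with 5 to 3.21 with 0.1, and the call held with both. The authors' deposited table gave a log2 fold change of 4.82 (SE 2.09) and a q-value of 0.113 for Grb10, so the submitters' own test did not call it. Igf2, Igf2r and Grb10 are known as imprinted genes in mice, a shared feature that was looked up after their values were seen.

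On the deposited scale the 5 binding-protein transcripts had nearly the same mean sum in both genotypes, 724 ± 50.3 (SD, n = 4) in KO and 715 ± 158 (SD, n = 5) in WT livers. Scaling to equal totals raises the KO sums relative to WT, so this near equality holds only on the deposited scale. The make-up of the sum differed between the genotypes. Igfbp1 and Igfbp2 are secreted mainly by hepatocytes, and their liver mRNA responds to feeding and insulin. Igfbp2 fell in KO livers. It stood at 137, 101, 115 and 98.5 in KO and at 247, 384, 329, 225 and 148 in WT livers. The groups did not overlap, although the highest KO value (KO 1) and the lowest WT value (WT 5) were close. The WT mean was 2.36 times the KO mean, and the log2 fold change was -1.17 ± 0.25 (SE; limma adjusted p = 0.00551). WT males were below all WT females, and the fold change was -0.80 among males alone (adjusted p = 0.0419) and -0.95 with sex as a covariate (adjusted p = 0.00416). At equal totals it was -0.77 and the call was lost (adjusted p = 0.0550).

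Igfbp1 stood at 180, 180, 173 and 262 in KO and at 104, 153, 168, 82.8 and 49.6 in WT livers. The lowest KO value lay above the highest WT value by a narrow margin, and WT males were below all WT females. The log2 fold change was 0.93 ± 0.33 (SE), and the limma adjusted p was 0.0505, just outside the threshold. The test passed with sex as a covariate (log2 fold change 1.15, adjusted p = 0.0178), among males alone (1.64, adjusted p = 0.0160) and at equal totals (1.33, adjusted p = 0.0101). It did not pass with WT females as the only controls (0.49, adjusted p = 0.103) or with median-of-ratios scaling (0.84, adjusted p = 0.0701). Leaving out 1 library at a time gave adjusted p-values from 0.0265 to 0.127, and it passed without WT 2 (0.0349) and without WT 3 (0.0265). Per the authors' deposited table its q-value was 0.105. The ratio of Igfbp1 to Igfbp2 was 1.32 to 2.66 in KO and 0.335 to 0.512 in WT livers.

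Igfbp7 encodes a secreted protein of vessel walls and stroma that binds IGFs weakly. It stood at 149.3, 166, 187 and 167 in KO and at 75.8, 75.1, 76.0, 85.2 and 70.5 in WT livers. The replicates were tight and the groups far apart. The means were 167 ± 15.2 (SD, n = 4) and 76.5 ± 5.36 (SD, n = 5), a ratio of 2.19, and the log2 fold change was 1.12 ± 0.08 (SE; limma adjusted p = 1.51e-05). Markers of other liver cells were examined beside Igfbp7, where 21.4% of all transcripts tested were called higher and 14.5% lower. Of 7 stellate cell and fibroblast markers, all tested, 6 rose and Dcn did not pass the test. The sum of all 7 was 235 to 281 in KO livers against 114 to 206. Most of that sum was Dcn (143 to 196 against 88.0 to 174). Col1a1, a fibrillar collagen chain, stood at 7.29 to 9.76 against 0.754 to 1.49. All 6 macrophage markers rose, with sums of 204 to 277 against 135 to 193. Of 6 endothelial markers 1 rose (Cdh5) and 1 fell (Lyve1), with sums of 53.4 to 68.1 against 51.3 to 72.5. Of 6 cholangiocyte markers 3 were tested and rose, with sums of 11.4 to 15.0 against 1.79 to 2.79, while Krt7 and Cftr were at 0.829 or less in every library. Krt19, at 0.189 to 0.760 in WT livers, and Sox9, at 0.363 to 1.11, reached the minimum mean of 1 only through the KO livers. Their entry into the test therefore favoured a rise. The part of these cell types in the binding-protein values was not tested.

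Igfbp3, the main carrier of IGF in blood, and Igfbp4, an inhibitor of IGF action, did not pass the test. Igfbp3 stood at 18.5, 19.7, 17.5 and 15.8 in KO and at 18.8, 13.1, 17.1, 15.8 and 11.1 in WT livers, with a log2 fold change of 0.24 (95% interval -0.08 to 0.56, limma adjusted p = 0.224). Igfbp4 stood at 196, 262, 201 and 250 in KO and at 242, 262, 260.5, 246 and 218 in WT livers, with a log2 fold change of -0.12 (95% interval -0.36 to 0.12, limma adjusted p = 0.419). The groups overlapped for each gene. At equal totals Igfbp3 was called higher (0.62, adjusted p = 0.0268), and Igfbp4 changed sign (0.28, adjusted p = 0.117).

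In shares of the 5-transcript sum, Igfbp2 made up 15.7% ± 3.37 (SD, n = 4) in KO and 36.4% ± 5.02 (SD, n = 5) in WT livers. Igfbp7 made up 23.2% ± 2.58 against 11.1% ± 2.49, and Igfbp1 27.3% ± 3.90 against 15.0% ± 3.84, with the same n. Shares of Igfbp4 (31.3% against 35.3%) and Igfbp3 (2.48% against 2.17%) overlapped between the genotypes. A share does not depend on how a library is scaled. The shares of 1 liver add up to the whole, so a lower share of 1 transcript raises the others.

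**Figure D3:**
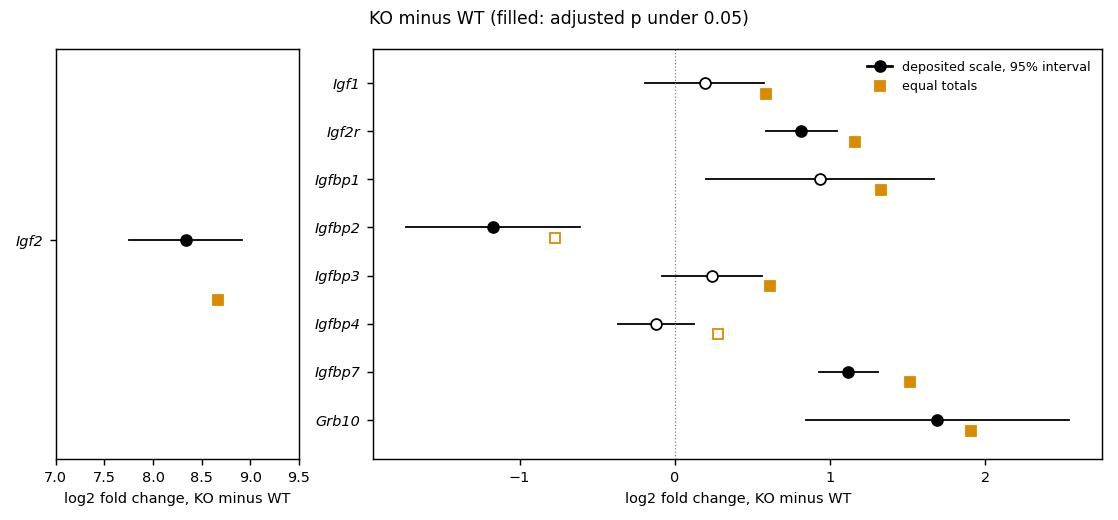
Log2 fold change, KO minus WT (horizontal axis), of the 9 members tested, with Igf2 on an axis of its own from 7 to 9.5; circles with 95% intervals are the deposited scale, squares are libraries scaled to equal totals, and filled symbols passed an adjusted p of 0.05. Igf2, Igf2r, Igfbp7 and Grb10 are filled on both scales, Igfbp2 on the deposited scale only, and every square lies to the right of its circle.

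The sexes were unevenly split between the genotypes, so they were also compared. Between WT males and WT females, 0 of 9 members were called by limma, against 1.19% of all transcripts tested. At an unadjusted p under 0.05 there were 3, namely Igfbp1 (49.6 and 82.8 in males against 104 to 168 in females), Igfbp2 (148 and 225 against 247 to 384) and Grb10. For the difference between the sexes in the genotype effect, 0 of 9 members were called, against 0.119% of all transcripts tested, with 2 at an unadjusted p under 0.05. These were Igf2, where the KO female stood at 1670 and KO males at 655 to 847 (log2 difference -0.99, limma adjusted p = 0.285), and Igfbp1 (log2 difference 1.26, limma adjusted p = 0.404). The shares of 1.19% and 0.119% are at an adjusted p, and no share of all transcripts was taken at the unadjusted threshold. The counts of 3 and 2 can therefore not be set against them. The KO group held 1 female, whose spread was assumed to be that of the other groups.

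The 5 transcripts whose log2 profile over the 9 libraries lay closest to that of Igf2, by mean absolute difference after centring, were Meg3, Cib3, Lcn2, Slpi and Ly6d. Meg3, an imprinted noncoding RNA, was nearest at 1.30 log2 units, with 77.4, 139, 73.8 and 112 in KO and 0.419 to 1.31 in WT livers. Cib3, a calcium-binding protein, differed by 1.76 on average and stood at 79.3 to 147 against 1.26 to 7.87. Lcn2, which binds bacterial iron carriers, differed by 1.79 (448 to 753 against 5.10 to 61.8), as did the protease inhibitor Slpi (29.9 to 43.0 against 0 to 1.34). Ly6d, a membrane-anchored surface protein, differed by 1.81 and stood at 199, 134, 95.04 and 36.1 in KO against 1.39 to 5.81 in WT livers. The measure mostly follows the size of the difference between the genotypes. Ly6d and, by a narrow margin (43.0 against 42.5 in KO 2), Slpi were highest in the only KO female, as was Igf2. Cib3 and Lcn2 were lowest there.

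Of 48 other genes of the pathway, 35 were tested, and 4 rose, 5 fell and 26 did not pass the test. Their median log2 fold change was -0.01, against 0.03 over all transcripts tested. Of all transcripts tested, 21.4% were called higher and 14.5% lower. At equal totals limma called 12 of the 35 higher and 0 lower (unadjusted p under 0.05 and lower: 1), so the calls of a decrease below were lost on that scale. Over all transcripts tested, 45.0% were called higher and 2.72% lower at equal totals.

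Among the carriers and the proteases that cut binding proteins, 5 of 11 were tested, and 2 rose and 1 fell. Htra1, a secreted serine protease, was 1.71 to 2.25 in KO and 0.616 to 1.49 in WT livers (log2 fold change 0.62, limma adjusted p = 0.0127). The WT mean of Htra1 was 0.964, so it reached the minimum mean of 1 only through the KO livers, which favoured a rise. Igfbp6, a binding protein that prefers IGF2, was 1.90 to 2.49 against 0.782 to 2.37 (0.54, limma adjusted p = 0.0406), and WT 3 overlapped the KO range. The Igfbp6 call was lost when any library other than WT 3 was left out, with adjusted p-values up to 0.101. Per the authors' deposited table, the q-values of Htra1 and Igfbp6 were 0.370 and 0.340. The authors' deposited table called Stc2 (q-value 0.0167), a secreted inhibitor of pappalysin proteases, and Htra3 (q-value 0.0386), a relative of Htra1, higher in KO. Both were too low to be tested here, at 0.254 to 0.301 in KO and 0 to 0.137 in WT livers for Stc2 and at 0.883 to 1.26 against 0.210 to 0.449 for Htra3, and were named after their values were seen. Plg, the precursor of plasmin and a major liver product, was 706 to 792 against 990 to 1128 (-0.51, limma adjusted p = 0.00111). Igfals, the subunit that joins IGF and Igfbp3 in the large blood complex, stood at 21.1 to 31.6 against 29.2 to 46.6 and did not pass the test (adjusted p = 0.0831). Pappa, a protease that cuts Igfbp4, was at 0.0744 or less in every library.

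In receptor signalling, 21 of 23 genes were tested, and 1 rose and 3 fell. Insr, the insulin receptor, was 9.60 to 10.1 in KO and 12.1 to 13.8 in WT livers (log2 fold change -0.38, limma adjusted p = 0.00154). Akt2, the main insulin-responsive kinase of its family in liver, was 14.6 to 19.4 against 21.8 to 24.2 (-0.44, limma adjusted p = 0.00329). Sos1, which activates Ras downstream of receptors, was 4.32 to 5.33 against 5.44 to 7.60 (-0.38, limma adjusted p = 0.0151). Foxo3, a transcription factor that AKT keeps out of the nucleus, was 7.49 to 10.8 against 4.15 to 5.48 (0.78, limma adjusted p = 0.000959). For these 4 genes, named because they were called, the groups did not overlap. Of all transcripts tested, 19.0% had every KO library above every WT library and 12.1% every KO library below. Lack of overlap was not limited to the called genes of this list. Irs1, Irs2, Akt1, Foxo1 and Mtor were among the 17 that did not pass.

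All 6 genes of growth hormone input were tested, and 1 rose and 1 fell. Ghr, the growth hormone receptor, stood at 76.1, 98.6, 82.9 and 83.9 in KO and at 112, 126, 142, 168 and 141 in WT livers (log2 fold change -0.68, limma adjusted p = 0.00231). Stat5b, the transcription factor through which growth hormone drives Igf1, was 6.95 to 10.3 against 3.79 to 6.21 (0.65, limma adjusted p = 0.00887). The growth hormone target Cish was uneven within KO, at 1.22, 1.15, 6.44 and 9.49, against 0.511 to 1.65 in WT livers, and did not pass the test (adjusted p = 0.0661). Socs2, another target, was 5.95 to 13.0 against 2.48 to 7.51 and did not pass either (adjusted p = 0.0568).

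Among proteins that bind Igf2 mRNA or act on the Igf2 gene, 3 of 8 were tested, and limma called 0 of them, as did the q-values of the authors' deposited table. Igf2bp3, an mRNA-binding protein of fetal tissues, stood at 3.37, 1.84, 2.42 and 2.00 in KO and 0.968 to 2.03 in WT livers (unadjusted p = 0.0197, limma adjusted p = 0.0537), the only 1 of the 3 with an unadjusted p under 0.05. Igf2bp1, Lin28b and Hmga2, other genes of fetal growth, were at 0.146 or less in every library. Among hepatoblast markers, Afp, the fetal serum protein, stood at 20.9 to 48.6 in KO and 1.45 to 1.95 in WT livers. The cell-surface proteoglycan Gpc3 stood at 1.88 to 4.62 against 0.394 to 1.05. Both rose, where 21.4% of all transcripts tested were called higher. Dlk1, the third of these markers, was at or near 0 in both genotypes (at most 0.173). Gpc3 reached the minimum mean of 1 only through the KO livers.

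**Figure D4:**
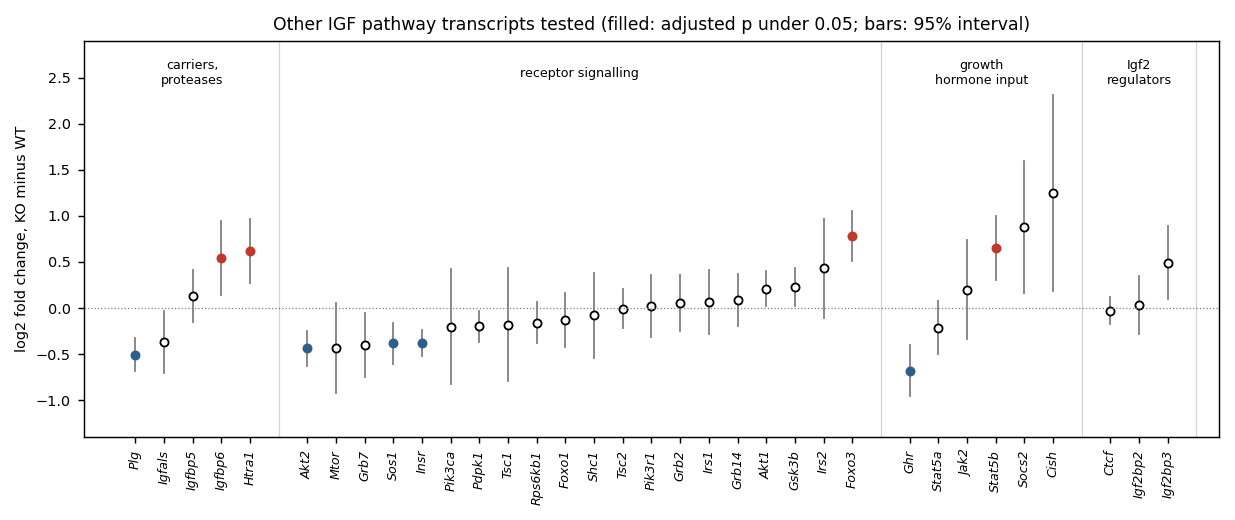
Log2 fold change, KO minus WT (vertical axis), with 95% intervals of 34 of the 35 other pathway transcripts tested, ordered by value within 4 lists. Filled red points (4) were called higher and filled blue points (5) lower at an adjusted p of 0.05, and open points did not pass.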

How the data were processed

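PolyA RNA-seq of 9 mouse livers was analysed from 1 table of the whole series. The submitters' processing notes name kallisto, sleuth and mm10. The sources used here give neither versions nor how 1 transcript per gene was chosen. The authors deposited per-library values treated here as a normalised signal per length, since their sums differ between libraries and they are not TPM. The q-value and p-value columns were deposited by the authors, and the deposited coefficients are on a natural log scale as WT minus KO, which was turned to KO minus WT in log2.

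limma 3.58.1 under R 4.3.3 was fitted to log2(value + 1) of the 10950 transcripts whose mean over 9 libraries reached 1. Genotype was the single term, the prior variance followed a trend, and p-values were adjusted by Benjamini-Hochberg and called under 0.05. Sexes were compared in a fit with 1 group per genotype and sex. The test the design named for abundances was kept.

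Each animal was 1 replicate, and no pair of libraries had identical values. Reads were recovered from the size of low values and annotated lengths; 63.1% to 66.7% of low values were whole within 0.1 read, so no count test was run. Precision follows these reads. The members and gene lists were chosen with earlier results of these data known. All members were named, as were up to 3 called genes per direction and list and the 5 profiles nearest Igf2. Seed matches and promoters were read from GENCODE M21 and RefSeq. In simulated data for the comparison of genotypes (10950 transcripts, 200 changed), the fit recovered 76% of planted log2 changes of 1 and 95% of planted changes of 2, with 6 false among 177 calls. The simulated noise was normal, and a far smaller part was changed than the 21.4% and 14.5% called in the real data. These rates may therefore differ from those in the real data. Alternatives covered pseudocounts, filters, scaling, sex, males alone, WT females alone (chosen after seeing the data), leaving out libraries and the submitters' test. H19 and miR-122 were not analysed here, and some list members are counted but not reported here.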

Additional observations from a re-analysis of the deposited data

Results flagged for a closer look

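The highest of the 5 WT values of Igf2, 2.59 in WT 1, lay far from the other 4 (1.46 to 1.72) for the spread of that group. The highest of the 4 KO values of Igfbp1, 262 in KO 4, lay far from the other 3 (173 to 180). These were 2 of 20 groups examined (10 members in each genotype), where chance flags about 1 in 20.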

How the results depend on the processing

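Leaving out each library in turn gave 4 to 5 members called higher and 1 called lower, 3 to 5 other pathway genes called higher and 5 to 7 called lower, against 4, 1, 4 and 5 with all libraries. At equal totals the counts were 7, 0, 12 and 0, and 1 member differed between the sexes within WT. Other pathway genes called higher were 2 with a mean of at least 5 and 2 at an adjusted p under 0.01; those called lower were 2 among males alone and 9 with median-of-ratios scaling. With a pseudocount of 0.1, 1 member differed between the sexes within WT. The log2 fold change of Igfbp4 changed sign to 0.28 at equal totals and to 0.027 among males alone. The cause of these differences was not tested, except that males alone left fewer samples and a higher filter fewer genes. Igf2, Igf2r and Igfbp7 were called higher under every alternative run. The sex-by-genotype difference could not be estimated without KO 1, the only KO female. With WT females as the only controls, chosen after seeing the data, the counts were 4, 1, 4 and 6.

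With a replicate block the counts were 4, 1, 4 and 4, and Igfbp6 (adjusted p = 0.109) and Sos1 (adjusted p = 0.0737) lost their calls while Socs2 gained a call (adjusted p = 0.00885). The block gave Igfbp1 a log2 fold change of 0.68 (adjusted p = 0.109). The numbers did not pair the libraries: deviations of same-numbered libraries correlated at 0.23, 0.08, -0.18 and 0.11, and not every KO library correlated best with its own number. WT 5 has no KO counterpart and dropped out of that fit. WT values of Igf2, Igf1r and Grb10 rest on few reads, which limits their precision.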
